A study of Mus musculus with 12 samples.

Results

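The transcriptional response to NMDA of retinas that lack JNK3 was followed in 4 of the 12 RNA-seq libraries of the series. They are the libraries labelled JNK3KO, 2 of retinas injected with PBS and 2 of retinas injected with NMDA, and they were chosen by those labels alone. The mice were constitutive Jnk3-/- animals (JNK3 KO), so every cell carried the deletion, in the control retinas too. Eyes received 1 uL of 40 mM NMDA (40 nmol) or 1 uL of PBS into the vitreous, and the retinas were taken 24 h later. The other 8 libraries, 2 in each group, are of WT (B6J) retinas and of sh*Pax6* retinas, infected with an AAV2.7m8 vector that carries a short hairpin RNA against *Pax6*, each after PBS or NMDA. No library of retinas with the scrambled hairpin was analysed here. Poly(A) RNA of more than 3 retinas went into each library, so a library is a pool of eyes and not a single animal. The animals were 6 weeks old at injection by the study's schematic and 2 months old by its legends. The deposited values are FPKM (fragments scaled by transcript length and by the mapped fragments of the library), which hold no read counts, so the depth and the counting error behind a value are unknown.

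NMDA is an agonist of a class of glutamate receptors that let calcium into neurons. An excess in the eye kills retinal ganglion cells (RGCs), the output neurons of the retina, and many amacrine cells, the interneurons that contact them. JNK3, encoded by *Mapk10*, is the c-Jun N-terminal kinase found mainly in neurons. It is activated by excitotoxic and axonal injury and phosphorylates transcription factors such as c-Jun, a component of the AP-1 complex.

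In the JNK3 KO libraries *Mapk10* (chr5:102907948-103211334, GRCm38) stood at 9.47 and 8.75 FPKM after PBS and 6.65 and 13.8 FPKM after NMDA, beside 42.8 and 50.7 FPKM in the WT libraries after PBS. In sh*Pax6* retinas it was at 20.9 and 21.3 FPKM after PBS and 16.2 and 8.85 FPKM after NMDA. The level after PBS was lower in JNK3 KO than in WT (log2 difference -2.34, adjusted p = 0.0215, limma). It was not at 0, and which part of the gene is deleted is not given in the sources used here, so a value for the whole gene does not check the deletion fully. After NMDA the WT libraries fell to 8.98 and 6 FPKM, and JNK3 KO and WT then differed by 0.38 on the log2 scale (adjusted p = 0.398). The summed FPKM of all genes lay between 541210 and 576922 in 10 libraries and at 805627 and 820180 in the 2 WT libraries after NMDA, which thus stand apart. *Xist*, transcribed in females, was at 138 and 126 FPKM in the 2 sh*Pax6* libraries after NMDA and at or under 0.22 FPKM in the other 10. No JNK3 KO library stood apart in either measure.

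Of 16471 genes tested, 713 rose (4.33%) and 1005 fell (6.1%) after NMDA in JNK3 KO retinas at an adjusted p under 0.05. Of these, 128 rose and 308 fell by more than 1 on the log2 scale, and 391 of the genes with these larger changes code for proteins and 45 do not or have no type given. The median log2 fold change over all genes tested was -0.01 and the median absolute value 0.25. The shares of 4.33% rising and 6.1% falling are the background for the counts of list members in JNK3 KO below. In WT retinas, 4286 genes rose and 5569 fell, with a median absolute log2 fold change of 0.83, and in sh*Pax6* retinas 3151 rose and 1816 fell, with 0.38. All 1718 genes called in JNK3 KO had both NMDA libraries beyond both PBS libraries, as did 61.5% of all genes tested. The replicates of JNK3 KO were close, with a median absolute log2 difference of 0.14 after PBS and 0.11 after NMDA. The counts still rested on all 4 libraries. When any 1 of them was left out, 174 to 269 genes rose and 354 to 457 fell, and 29.6% to 40.1% of the 1718 calls were kept.

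The response went with gene length. Of genes with a spliced length over 4 kb 10.3% rose and 3.46% fell, and of those under 1 kb 1.63% rose and 6% fell. The median log2 fold change in JNK3 KO was -0.11 for genes under 1 kb, -0.11 for 1 to 2 kb, 0 for 2 to 4 kb and 0.16 over 4 kb (Spearman rank correlation with length 0.229 across genes, which are not independent). The trend ran the other way in the other genotypes, with correlations of -0.565 for WT and -0.173 for sh*Pax6*. Its part in single results was not tested except by a correction for length, which left a correlation of -0.0129 and whose effect is given where it ended a call named here or moved a count of 3 or more list members by over 1.5 times.

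**Figure D1:**
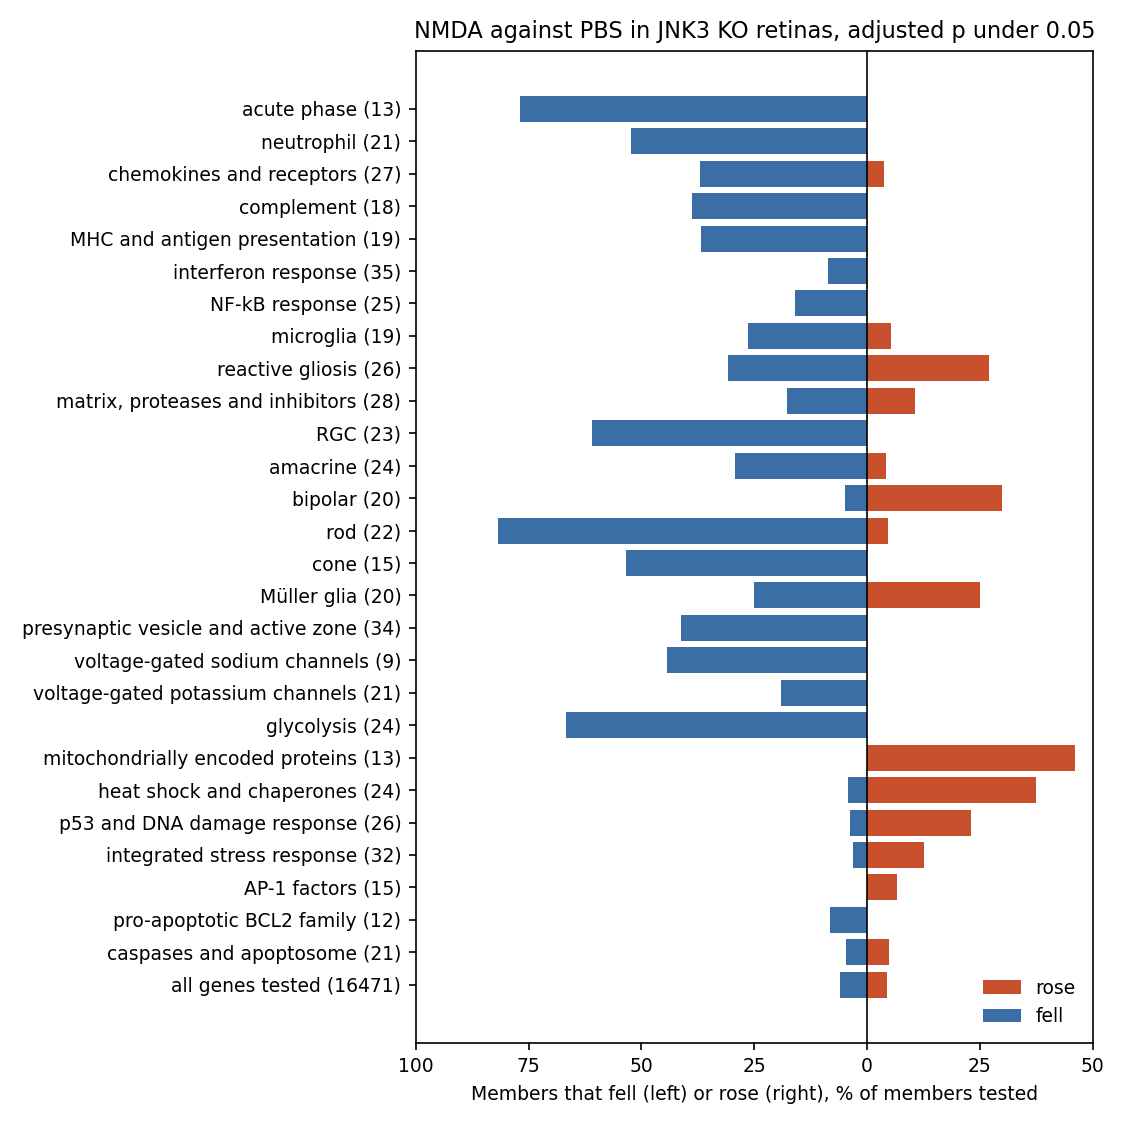
The share of tested members of the gene lists on the y axis that fell (bars to the left) or rose (bars to the right) after NMDA in JNK3 KO retinas, in percent, with the number of members tested in brackets and all genes tested in the bottom row. Rod, acute phase, glycolysis and RGC genes have the longest bars to the left, with 18 of 22, 10 of 13, 16 of 24 and 14 of 23 falling, and mitochondrially encoded and heat shock genes the longest to the right, with 6 of 13 and 9 of 24 rising.

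Among genes above 1 FPKM in both JNK3 KO groups, those with the largest falls include genes of inflammatory proteins. *Saa3*, an acute phase protein, was at 56.7 and 51.5 FPKM after PBS and 2.4 and 2.64 FPKM after NMDA, a log2 fold change of -4.37 ± 0.39, adjusted p = 0.000301. Values in brackets after other genes give the same, the log2 fold change ± its SE and the adjusted p of limma. The calprotectin subunits *S100a8* (chr3:90668978-90670035) and *S100a9* (chr3:90692632-90695721), made chiefly by neutrophils, are neighbors on that chromosome. *S100a8* was at 57.3 and 65.6 FPKM after PBS and 6.42 and 5.29 FPKM after NMDA. Both PBS libraries lay far above both NMDA libraries for these genes, and *S100a8* fell by 3.37 on the log2 scale (SE 0.18, adjusted p = 1.63e-05). *S100a9* was at 70.7 and 76.1 FPKM after PBS and 4.34 and 6.61 FPKM after NMDA and fell by 3.75 (SE 0.17, adjusted p = 7.61e-06).

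*Il1b*, the cytokine interleukin-1 beta, was at 14.9 and 13 FPKM after PBS and 0.86 and 0.67 FPKM after NMDA (-4.03 ± 0.35, adjusted p = 0.00023). *Timp1*, an inhibitor of matrix metalloproteases that reactive glia secrete, was at 211 and 211 FPKM after PBS and 18.2 and 18.4 FPKM after NMDA (-3.52 ± 0.08, adjusted p = 8.8e-08). *Lcn2*, the iron-binding lipocalin of acute phase and gliotic responses, was at 586 and 563 FPKM after PBS and 129.68 and 137 FPKM after NMDA (-2.11 ± 0.05, adjusted p = 8.8e-08). In each of these the replicates were nearly equal and the groups did not overlap, as in 61.5% of all genes tested.

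In both other genotypes *S100a8* and *Il1b* moved the other way. *S100a8* rose in WT retinas from 92.6 and 108 to 645 and 721 FPKM and in sh*Pax6* retinas from 1.44 and 1.14 to 22.9 and 31.6 FPKM. The response in JNK3 KO thus differed from that in WT by -6.14 (95% CI -6.71 to -5.58, adjusted p = 4.12e-07) and from that in sh*Pax6* by -7.66 (95% CI -8.23 to -7.1, adjusted p = 4.51e-07). *Il1b* rose from 15.9 and 18.6 to 89.7 and 82 FPKM in WT, and JNK3 KO differed by -6.34 (95% CI -7.45 to -5.23, adjusted p = 8.53e-06) from WT and by -6.72 (95% CI -7.83 to -5.61, adjusted p = 4.56e-05) from sh*Pax6*. In WT retinas *Lcn2* lay above its JNK3 KO level after PBS, at 774 and 805 FPKM, and stood at 934 and 873 FPKM after NMDA. For *Timp1* the WT response was itself a small fall of 0.32 on the log2 scale, and the responses differed by -3.19 (95% CI -3.46 to -2.93, adjusted p = 3.35e-07).

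Of the neutrophil list, 21 of 26 genes were tested, and in JNK3 KO 0 rose (background 4.33%) and 11 fell (background 6.1%), with a median log2 fold change of -2.27. The list's median was 1.78 for WT and 2.61 for sh*Pax6* retinas. The response of JNK3 KO was lower than that of WT for 18 of the 21 (background 23.5% of all genes, with 27.9% higher) and lower than that of sh*Pax6* for 16 (background 12.1%, with 5.62% higher). The receptors *Csf3r*, for granulocyte colony-stimulating factor, and *Cxcr2*, for neutrophil chemokines, are among the more specific members. *Csf3r* was at 20.1 and 19.1 FPKM after PBS and 1.86 and 1.4 FPKM after NMDA (-3.52 ± 0.23, adjusted p = 5.44e-05). *Cxcr2* was at 6.3 and 7.59 FPKM after PBS and 0.41 and 0.36 FPKM after NMDA (-3.86 ± 0.25, adjusted p = 4.9e-05). *Selplg*, the P-selectin ligand of leukocytes, is not in this list but in the microglial one. It was at 9.97 and 10.6 FPKM after PBS and 1.56 and 1.36 FPKM after NMDA (-2.73 ± 0.15, adjusted p = 2.1e-05). The summed FPKM of the neutrophil list, mostly *Lcn2*, was 786 in both PBS libraries and 154 and 162 in the NMDA libraries. With 1 library left out, 8 to 10 members fell.

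Other blood and immune marker lists differed in how far their sums moved. The summed FPKM of 6 erythrocyte genes was 126 and 123 after PBS and 69.4 and 79.7 after NMDA, and that of 8 T and B cell genes was 3.52 and 3 against 1.33 and 0.66. Only 1 of the 6 erythrocyte genes passed the test, a fall, and 0 of the 8 T and B cell genes did, whose values were low. The summed microglial list was 187 in both PBS libraries and 145 and 140 after NMDA, whereas that of monocytes and macrophages was 235 and 218 after PBS and 229 and 216 after NMDA, where the groups overlap. *Ly6g*, a defining neutrophil antigen, was at 0.46 and 0.2 FPKM after PBS and at 0 in both NMDA libraries, and *Ngp*, a granule protein, was listed at 0 in all 4. The part of blood or infiltrating cells in the inflammatory falls was not tested. In bulk retina, fewer cells of a type and less RNA per cell cannot be told apart, here and for every marker list below.

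**Figure D2:**
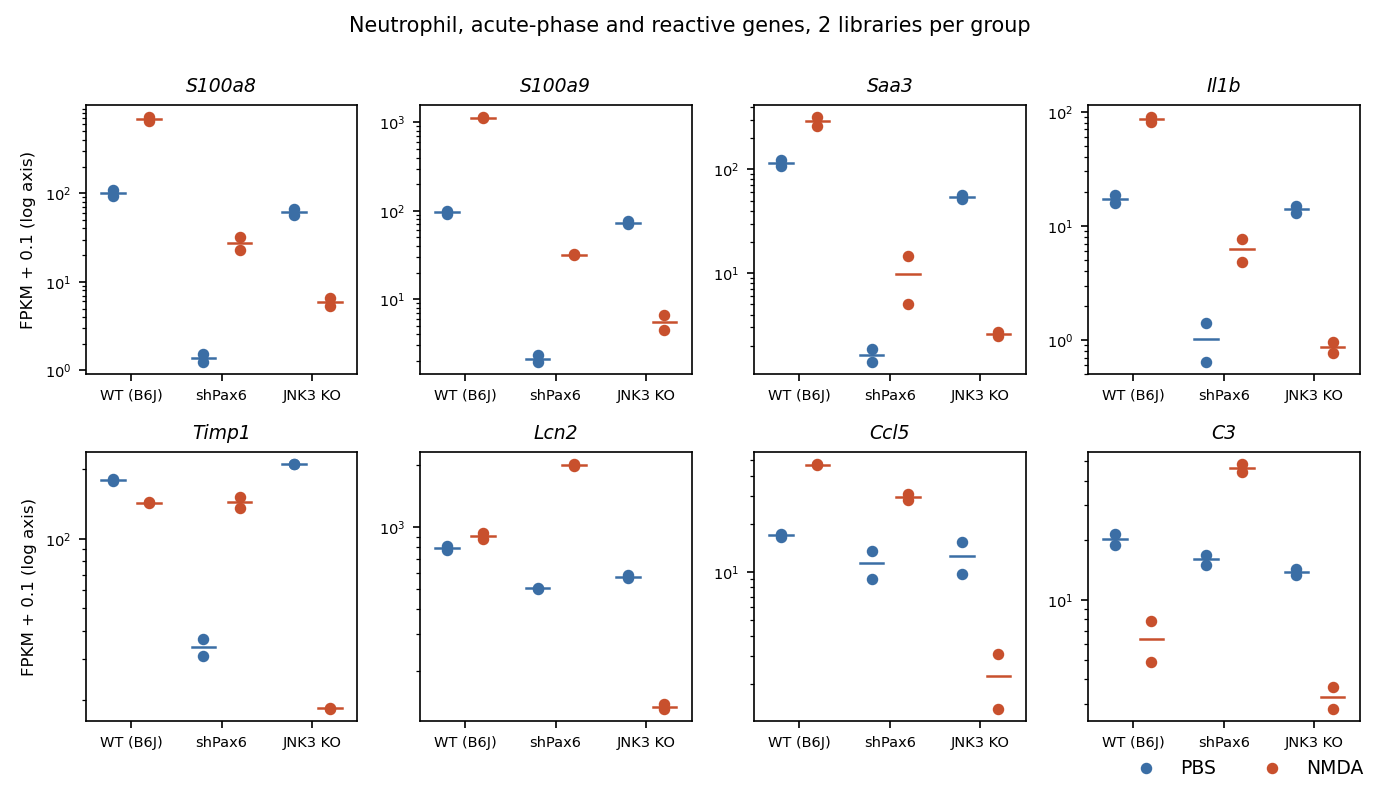
FPKM + 0.1 (y axis, log scale) of 8 inflammatory genes in each of the 12 libraries, by genotype (x axis) and injection (color), with a point for a library and a line for the mean of a group. In JNK3 KO the PBS points lie above the NMDA points in all 8 panels, as for *S100a9* with 70.7 and 76.1 FPKM against 4.34 and 6.61 FPKM.

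Acute phase genes followed the same direction, with 10 of 13 falling and 0 rising (8 to 9 falling with 1 library left out). *Hp*, the hemoglobin-binding haptoglobin, was at 10.2 and 11.3 FPKM after PBS and 0.87 and 0.75 FPKM after NMDA (-3.57 ± 0.24, adjusted p = 5.44e-05). *Lrg1*, a secreted glycoprotein of inflamed vessels that is not in this list, was at 7.31 and 7.25 FPKM after PBS and 1.29 and 0.87 FPKM after NMDA (-2.67 ± 0.3, adjusted p = 0.000967). *Cp*, the copper-carrying ferroxidase ceruloplasmin, fell by 0.99 on the log2 scale (SE 0.06, adjusted p = 2.1e-05) from 315 and 332 to 164 and 163 FPKM. In sh*Pax6* retinas *Cp* rose, and the 2 responses differed by -1.83 (95% CI -2 to -1.65, adjusted p = 3.16e-06), while the difference from WT was 0.05 (95% CI -0.12 to 0.23, adjusted p = 0.598). The response was lower than that of WT for 6 acute phase genes (background 23.5%) and lower than that of sh*Pax6* for 11 (background 12.1%).

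Among chemokines and their receptors, 10 of 27 fell and 1 rose (7 to 8 falling with 1 library left out). *Ccl5*, which recruits T cells and monocytes, was at 15.2 and 9.57 FPKM after PBS and 2.97 and 1.29 FPKM after NMDA (-2.56 ± 0.35, adjusted p = 0.00265), a call lost when the spread was estimated from the JNK3 KO libraries alone (adjusted p = 0.0764). *Ccl12* was at 13.1 and 12.4 FPKM after PBS and 2.2 and 2.34 FPKM after NMDA (-2.44 ± 0.34, adjusted p = 0.00274). The member that rose is *Ccl6*, a chemokine of myeloid cells, at 7.33 and 4.58 FPKM after PBS and 11.4 and 14 FPKM after NMDA (1.11 ± 0.23, adjusted p = 0.0157). Its call did not hold in every fit with a library left out, *Ccl6* (lost without 3 of the 4 libraries, adjusted p up to 0.14), or with the spread of the JNK3 KO libraries alone (adjusted p = 0.111). *Ccl2*, the main chemokine for monocytes, was at 5.23 and 5.38 FPKM after PBS and 7.03 and 8.41 FPKM after NMDA and did not pass (0.53 ± 0.31, adjusted p = 0.347). *Ccl2* rose by 4.84 on the log2 scale in WT and by 4.5 in sh*Pax6* retinas, and JNK3 KO differed from WT by -4.32 (95% CI -5.31 to -3.33, adjusted p = 4.16e-05).

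Complement and antigen presentation genes fell without any member rising. Of 18 complement genes 7 fell (3 to 5 with 1 library left out), among them *C3*, the central component, at 14.3 and 13.3 FPKM after PBS and 3.57 and 2.73 FPKM after NMDA (-2.11 ± 0.21, adjusted p = 0.000569), and *Cfb*, factor B of the alternative pathway, at 7.1 and 7.68 FPKM after PBS and 2.45 and 2.76 FPKM after NMDA (-1.47 ± 0.14, adjusted p = 0.000422). Of 19 MHC and antigen presentation genes 7 fell (4 to 5), among them the class II chain *H2-Aa* at 19.4 and 21.6 FPKM after PBS and 9.33 and 9.55 FPKM after NMDA (-1.11 ± 0.09, adjusted p = 0.000144) and the invariant chain *Cd74* at 31.2 and 28.1 FPKM after PBS and 14.8 and 14.8 FPKM after NMDA (-1 ± 0.11, adjusted p = 0.00105). *C3* fell in WT too, by 1.71, and its difference from WT was -0.4 (95% CI -1.08 to 0.29, adjusted p = 0.308), but under the length correction that difference was -1.5 (adjusted p = 0.00517). From sh*Pax6*, *C3* differed by -3.64 (95% CI -4.33 to -2.96, adjusted p = 9.73e-05).

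Myeloid markers did not move as one group. Of 19 microglial genes 5 fell and 1 rose, and of 21 monocyte and macrophage genes 5 fell and 4 rose (background 6.1% falling and 4.33% rising). *Tyrobp*, the signaling adaptor of microglia, was at 47.6 and 45.7 FPKM after PBS and 22.6 and 19.4 FPKM after NMDA (-1.15 ± 0.12, adjusted p = 0.000659), and the integrin *Itgam* at 6.97 and 6.33 FPKM after PBS and 2.37 and 2.39 FPKM after NMDA (-1.44 ± 0.17, adjusted p = 0.0013). *Gpnmb*, a glycoprotein of lipid-laden macrophages and pigment cells, went the other way, from 7.15 and 4.12 to 17.9 and 17.1 FPKM (1.67 ± 0.25, adjusted p = 0.00384), with an adjusted p of 0.0674 when the spread was estimated from the JNK3 KO libraries alone. Of 35 interferon response genes 3 fell and 0 rose (background 6.1% and 4.33%), with the GTPase *Gbp2* at 12.8 and 10.7 FPKM after PBS and 4.78 and 4.49 FPKM after NMDA (-1.32 ± 0.13, adjusted p = 0.000569). Of 25 NF-kB response genes 4 fell, a number that was 0 to 2 with 1 library left out.

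Most of the genes that mark RGCs fell. Of 23 tested, 14 fell, 0 rose and 9 did not pass (background 6.1% falling), with a median log2 fold change of -1.34, and the same list had a median of -1.59 in WT and of -1.85 in sh*Pax6*. In JNK3 KO 9 to 10 fell with 1 library left out. *Sncg*, gamma-synuclein, an abundant RGC protein, was at 135 and 129.55 FPKM after PBS and 29.4 and 29.7 FPKM after NMDA (-2.16 ± 0.07, adjusted p = 7.08e-07). *Nefl*, the light neurofilament subunit of axons, was at 141 and 138 FPKM after PBS and 32.6 and 32.3 FPKM after NMDA (-2.1 ± 0.08, adjusted p = 1.97e-06). *Thy1*, a surface glycoprotein of RGCs, was at 181 and 152 FPKM after PBS and 38.6 and 39 FPKM after NMDA (-2.09 ± 0.09, adjusted p = 7.61e-06). *Nrn1*, the neurite-promoting neuritin, was at 32.7 and 32.7 FPKM after PBS and 6.02 and 5.47 FPKM after NMDA (-2.49 ± 0.21, adjusted p = 0.000188). The NMDA libraries of each gene held a small share of the PBS level, and the groups were far apart.

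The transcription factor *Pou4f1*, which specifies RGCs, was at 12.4 and 10 FPKM after PBS and 3.29 and 4.21 FPKM after NMDA, and *Slc17a6*, their vesicular glutamate transporter, at 16.8 and 17 FPKM after PBS and 4.33 and 4.48 FPKM after NMDA. Neither passed the test (log2 -1.56 ± 0.65, adjusted p = 0.181, and -1.92 ± 0.73, adjusted p = 0.141). The groups did not overlap in either, which held for 61.5% of all genes tested. *Pou4f3*, its close relative, was at 1.8 and 1.88 FPKM after PBS and 0.16 and 0.22 FPKM after NMDA (-2.75 ± 0.67, adjusted p = 0.0332), and the RNA-binding protein *Rbpms* at 13.2 and 13.7 FPKM after PBS and 4.02 and 4.49 FPKM after NMDA (-1.64 ± 0.35, adjusted p = 0.0203). Both of the latter calls were lost when a library was left out, those of *Pou4f3* (lost without each of the 4 libraries, adjusted p up to 0.17) and *Rbpms* (lost without each of the 4 libraries, adjusted p up to 0.137).

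Against the other genotypes the RGC list showed no single direction. The response of JNK3 KO was higher than that of WT for 5 of the 23 genes and lower for 5 (background 27.9% and 23.5%), and against sh*Pax6* it was higher for 4 and lower for 4 (background 5.62% and 12.1%). *Nefl* fell in WT from 162 and 160.25 to 27.7 and 25.5 FPKM, and the difference was 0.5 (95% CI 0.25 to 0.74, adjusted p = 0.00403), which under the length correction became -0.12. *Nrn1* differed from WT by -0.32 (95% CI -0.99 to 0.34, adjusted p = 0.392). *Sncg* and *Thy1* fell more in JNK3 KO than in WT, with log2 differences of -1.9 (95% CI -2.12 to -1.68, adjusted p = 9.71e-07) and -2.1 (95% CI -2.41 to -1.8, adjusted p = 2.77e-06). In WT *Thy1* stood at 142 and 145 FPKM after PBS and 136 and 154 FPKM after NMDA, where the 2 groups overlap. In sh*Pax6* retinas the RGC genes were lower already after PBS, with a summed FPKM of the list of 326 and 323, beside 898 and 856 in JNK3 KO and 900 and 926 in WT.

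**Figure D3:**
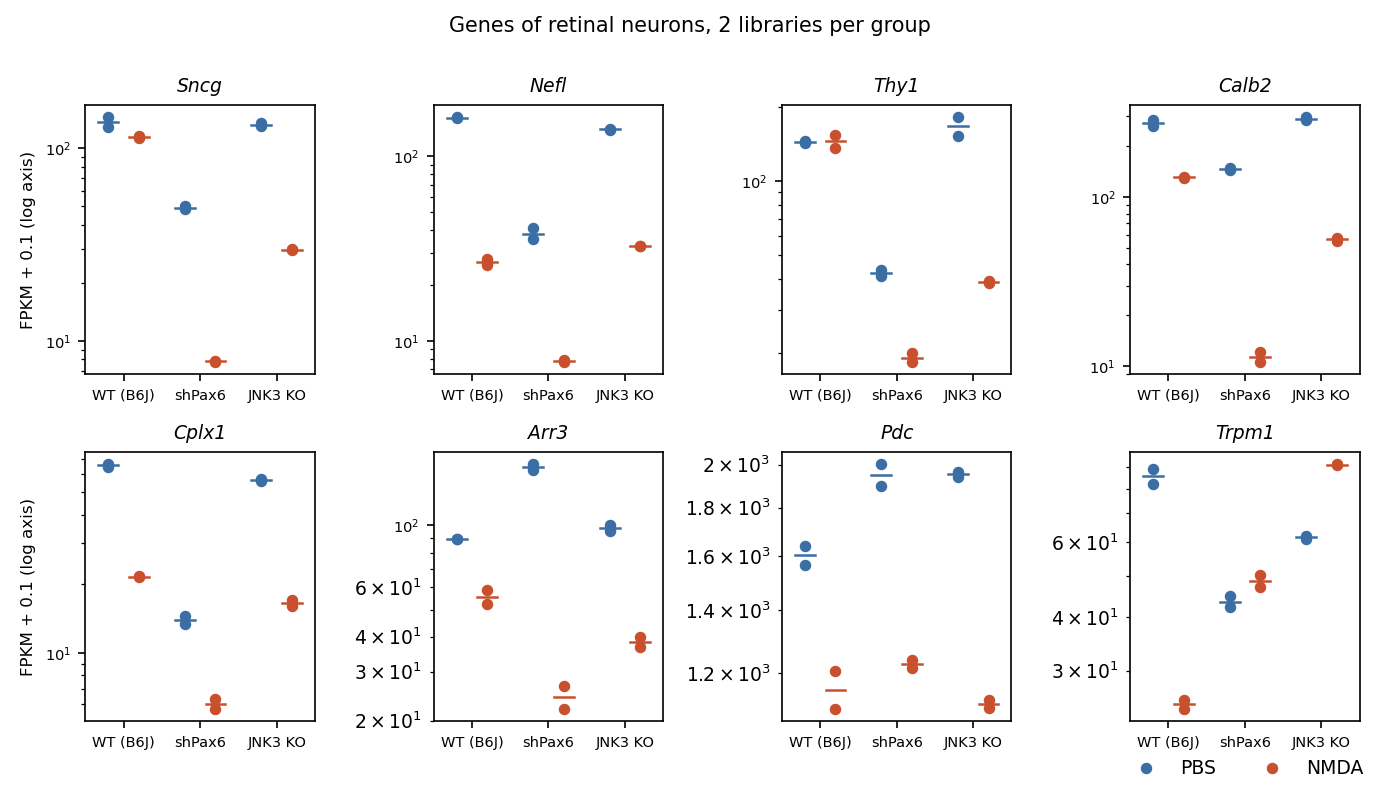
FPKM + 0.1 (y axis, log scale) of 8 genes of retinal neurons in each of the 12 libraries, by genotype (x axis) and injection (color), with a point for a library and a line for the mean of a group. The NMDA points of JNK3 KO lie below its PBS points in 7 panels, as for *Calb2* with 57.4 and 55.3 against 297 and 285 FPKM, and above them for *Trpm1*.

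Amacrine genes fell in part. Of 24 tested, 7 fell and 1 rose, with a median log2 fold change of -0.41, and 2 fell with any 1 library left out. *Calb2*, the calcium-binding calretinin of amacrine cells and RGCs, was at 297 and 285 FPKM after PBS and 57.4 and 55.3 FPKM after NMDA (-2.37 ± 0.07, adjusted p = 7.08e-07). *Calb2* is 1 of the 3 members with a response lower than in WT, and its log2 difference was -1.3 (95% CI -1.53 to -1.07, adjusted p = 9.85e-06). Its fall was smaller than in sh*Pax6* retinas, with 1.32 (95% CI 1.09 to 1.55, adjusted p = 6.92e-05). *Tac2*, a tachykinin precursor that is not in this list, was at 47.4 and 45.9 FPKM after PBS and 8.72 and 5.51 FPKM after NMDA (-2.73 ± 0.31, adjusted p = 0.000967). *Chat*, the acetylcholine-synthesizing enzyme of starburst amacrine cells, was at 5.58 and 5.18 FPKM after PBS and 1.1 and 1.11 FPKM after NMDA, and *Slc18a3*, their vesicular acetylcholine transporter, at 3.97 and 4.09 FPKM after PBS and 0.8 and 0.77 FPKM after NMDA. Their log2 fold changes were -2.18 and -2.22, calls that depended on every library, *Chat* (lost without each of the 4 libraries, adjusted p up to 0.122) and *Slc18a3* (lost without each of the 4 libraries, adjusted p up to 0.102).

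Of the genes of synapses and excitability, those of presynaptic vesicles and of sodium channels fell at the largest shares. Of 34 presynaptic genes 14 fell and 0 rose (10 to 12 with 1 library left out). *Cplx1*, a complexin that clamps vesicle fusion, was at 55.8 and 57.3 FPKM after PBS and 15.9 and 16.9 FPKM after NMDA (-1.78 ± 0.08, adjusted p = 8.35e-06), and *Vamp1*, a vesicle SNARE, at 33 and 32.7 FPKM after PBS and 13 and 12.1 FPKM after NMDA (-1.38 ± 0.11, adjusted p = 0.00013). Of 21 voltage-gated potassium channel genes 4 fell, among them *Kcnc1*, a channel of fast-spiking neurons, at 21.4 and 22.7 FPKM after PBS and 13.2 and 12.8 FPKM after NMDA (-0.76 ± 0.11, adjusted p = 0.00294), and *Kcnab2*, a channel beta subunit, at 108 and 111 FPKM after PBS and 70.9 and 72.5 FPKM after NMDA (-0.61 ± 0.06, adjusted p = 0.00046). *Cacnb3*, a calcium channel beta subunit, was at 26.5 and 26.4 FPKM after PBS and 9.85 and 8.21 FPKM after NMDA (-1.54 ± 0.18, adjusted p = 0.00126), one of 2 of 21 calcium channel genes that fell, a share near the background of 6.1%. Of 9 sodium channel genes 4 fell, and none did with any 1 library left out. Of 11 AMPA and kainate receptor subunits 0 fell and 1 rose, of 21 GABA and glycine receptor subunits 2 fell and 1 rose, of 53 clustered protocadherins 0 fell and 2 rose, and none of the 5 NMDA receptor subunits passed the test. *Grin1*, the obligatory subunit, was at 24.4 and 25.1 FPKM after PBS and 17.9 and 17.3 FPKM after NMDA (-0.49 ± 0.18, adjusted p = 0.12).

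Genes of growing and injured axons were mixed, with 3 of 21 rising and 6 falling. *Gap43*, a growth cone protein, was at 60.4 and 63.5 FPKM after PBS and 28 and 29.5 FPKM after NMDA (-1.11 ± 0.06, adjusted p = 2.68e-05). The tubulin-binding stathmins *Stmn2* and *Stmn3* were at 51.4 and 46.7 FPKM after PBS and 19.7 and 19 FPKM after NMDA and at 143 and 149.97 FPKM after PBS and 69 and 67.2 FPKM after NMDA, and they fell by 1.34 and 1.1 on the log2 scale (adjusted p = 0.00133 and 2.09e-05). In WT retinas these 3 genes had log2 fold changes of 0.01, 0.62 and 0.41.

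Most rod photoreceptor genes fell. Of 22 rod genes 18 fell and 1 rose (16 falling with 1 library left out), with a median log2 fold change of -0.39. *Pdc*, phosducin, which binds transducin, was at 1965 and 1941 FPKM after PBS and 1103 and 1124 FPKM after NMDA (-0.81 ± 0.05, adjusted p = 4.17e-05). *Nrl*, the transcription factor that specifies rods, was at 851 and 809 FPKM after PBS and 583 and 568 FPKM after NMDA (-0.53 ± 0.04, adjusted p = 0.000143), and *Gngt1*, the gamma subunit of rod transducin, at 1071 and 1049 FPKM after PBS and 694 and 710.21 FPKM after NMDA (-0.59 ± 0.04, adjusted p = 7.46e-05). The member that rose is *Rp1*, a microtubule protein of the outer segment, at 207 and 225 FPKM after PBS and 319.79 and 314 FPKM after NMDA (0.55 ± 0.06, adjusted p = 0.000967).

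Of 15 cone genes 8 fell and 0 rose, with 3 to 5 falling when 1 library was left out. *Arr3*, cone arrestin, was at 100.27 and 95.8 FPKM after PBS and 39.8 and 36.7 FPKM after NMDA (-1.36 ± 0.1, adjusted p = 7.85e-05), *Opn1mw*, the green opsin, at 108 and 108 FPKM after PBS and 53.2 and 51 FPKM after NMDA (-1.05 ± 0.1, adjusted p = 0.000509), and *Gngt2*, the cone transducin gamma subunit, at 155 and 154 FPKM after PBS and 96.7 and 93.2 FPKM after NMDA (-0.7 ± 0.07, adjusted p = 0.000459). The median log2 fold change of the cone list was -0.48.

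Bipolar genes, of the interneurons between photoreceptors and RGCs, leaned upward, with 6 of 20 rising and 1 falling (2 to 4 rising with 1 library left out, 4 under the length correction). *Trpm1*, the transduction channel of ON bipolar cells, was at 61.8 and 61 FPKM after PBS and 91.2 and 90.7 FPKM after NMDA (0.57 ± 0.07, adjusted p = 0.00123). *Kdr*, a receptor for vascular endothelial growth factor, was at 38.5 and 38.5 FPKM after PBS and 57.6 and 57.5 FPKM after NMDA (0.58 ± 0.07, adjusted p = 0.00127), and was the one of 19 endothelial and pericyte genes that rose. *Kdr* fell by 1.67 on the log2 scale in WT retinas, and the responses differed by 2.25 (95% CI 2.02 to 2.47, adjusted p = 5.33e-07).

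Of 24 glycolytic genes 16 fell and 0 rose, the largest share of any metabolic list here. Under quantile normalization 10 fell, and 8 to 10 with 1 library left out. *Aldoc*, the brain aldolase, was at 316 and 327 FPKM after PBS and 169 and 169 FPKM after NMDA (-0.93 ± 0.07, adjusted p = 0.000144), and *Ldhb*, a lactate dehydrogenase subunit, at 167 and 160.07 FPKM after PBS and 88.7 and 88.6 FPKM after NMDA (-0.88 ± 0.08, adjusted p = 0.000227). *Hk2*, the hexokinase that is abundant in photoreceptors, was at 95.1 and 103 FPKM after PBS and 71.2 and 72.8 FPKM after NMDA and fell by 0.46 on the log2 scale, a call that depended on every library, *Hk2* (lost without each of the 4 libraries, adjusted p up to 0.0963). In WT retinas *Hk2* rose from 82.8 and 80.1 to 188 and 203 FPKM, and the responses differed by -1.72 (95% CI -2 to -1.44, adjusted p = 5.97e-06).

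Of 36 nuclear genes of respiratory chain complex I 13 fell and 0 rose, and of 42 genes of complexes II to V 10 fell and 0 rose. These are short genes, and under the length correction 2 and 4 fell. With 1 library left out 2 to 5 and 3 to 7 did. The 83 cytosolic ribosomal protein genes, also short, had 9 rising and 1 falling, and 33 rising under the length correction, 21 under quantile normalization. Neither count is therefore independent of how length is treated. The 13 proteins encoded in the mitochondrial genome went up in 6 cases and down in none (4 rising and 1 falling under quantile normalization, 2 to 4 rising with 1 library left out). *mt-Atp8*, an ATP synthase subunit that shares bases with its neighbor *mt-Atp6*, was at 5089 and 5424 FPKM after PBS and 18848 and 18104 FPKM after NMDA (1.81 ± 0.12, adjusted p = 5.44e-05), and since reads there can fall to either gene its value is uncertain. *mt-Nd2*, a complex I subunit, was at 2107 and 2245 FPKM after PBS and 3282 and 3177 FPKM after NMDA (0.57 ± 0.06, adjusted p = 0.000687).

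Fewer genes rose than fell, 713 against 1005, although under quantile normalization the counts were 882 and 871. *Hmga2*, an architectural chromatin protein of fetal and dividing cells, was at 0.89 and 0.68 FPKM after PBS and 12.4 and 12.3 FPKM after NMDA (3.82 ± 0.26, adjusted p = 6.62e-05). *Ccnd1*, cyclin D1, which drives entry into the cell cycle, was at 9.46 and 9.2 FPKM after PBS and 48.9 and 50.6 FPKM after NMDA (2.4 ± 0.18, adjusted p = 0.000107). *Myc*, a transcription factor of growth, was at 1.83 and 1.53 FPKM after PBS and 7.6 and 8.45 FPKM after NMDA (2.19 ± 0.2, adjusted p = 0.000305). The NMDA libraries of each were nearly equal and well above the PBS libraries.

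*Hmga2* rose in all genotypes, from 0.51 and 0.38 to 11.1 and 11.2 FPKM in WT and from 0.14 and 0.25 to 5.58 and 5.38 FPKM in sh*Pax6* retinas. The difference of its response from WT was -0.56 (95% CI -1.39 to 0.28, adjusted p = 0.244), though quantile normalization and the length correction gave -1.04 and -1.31 (adjusted p = 0.0412 and 0.023). For *Ccnd1* the rise in JNK3 KO was larger than in WT by a log2 difference of 0.8 (95% CI 0.22 to 1.38, adjusted p = 0.026), which the length correction reduced to 0.08 (adjusted p = 0.851). *Ccnd1* was the only one of 26 cell cycle genes to pass the test in JNK3 KO (background 4.33% rising and 6.1% falling).

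*Fosl1*, a subunit of AP-1, was at 0.89 and 1.31 FPKM after PBS and 7.6 and 8 FPKM after NMDA (2.74 ± 0.5, adjusted p = 0.00975). This was the largest called rise among protein-coding genes above 1 FPKM in both groups, provisional symbols aside. *Fosl1* was the only one of 15 AP-1 genes that rose (background 4.33%). The call was lost with a library left out, as was that of *Layn*, a hyaluronan receptor at 1 and 1.2 FPKM after PBS and 7.73 and 7.36 FPKM after NMDA. These were *Fosl1* (lost without 3 of the 4 libraries, adjusted p up to 0.0923) and *Layn* (lost without each of the 4 libraries, adjusted p up to 0.0937). *Jun*, the transcription factor that gave JNK its name, was at 23.8 and 23.2 FPKM after PBS and 25 and 25.4 FPKM after NMDA (0.1 ± 0.09, adjusted p = 0.552), and *Atf3*, an injury-induced partner of it, at 27.7 and 28.1 FPKM after PBS and 32.3 and 34.8 FPKM after NMDA (0.27 ± 0.11, adjusted p = 0.185). In *Jun* and *Atf3* the NMDA libraries lay just above the PBS libraries, and 61.5% of all genes tested had no overlap of the groups. *Fosl1* rose more in WT, from 0.48 and 0.76 to 13.2 and 15.1 FPKM, and the difference of -1.59 (95% CI -3.19 to 0.01, adjusted p = 0.0893) passed the threshold under 5 of the alternatives, at -1.16 (adjusted p = 0.0106) with a pseudocount of 1.

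**Figure D4:**
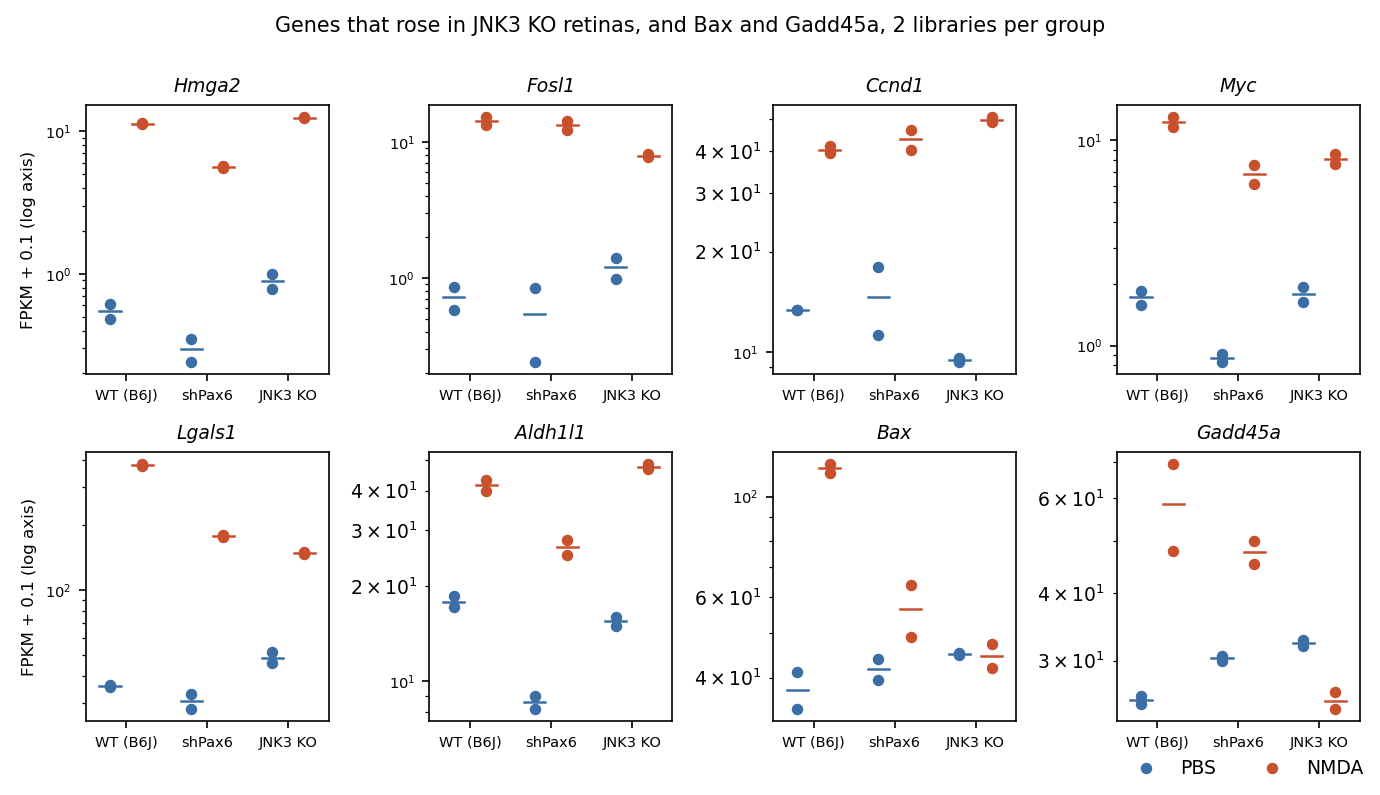
FPKM + 0.1 (y axis, log scale) of 6 genes that rose in JNK3 KO retinas and of *Bax* and *Gadd45a*, in each of the 12 libraries by genotype (x axis) and injection (color), with a point for a library and a line for the mean of a group. In JNK3 KO the NMDA points lie above the PBS points for the 6 genes, as for *Ccnd1* with 48.9 and 50.6 against 9.46 and 9.2 FPKM, while those of *Bax* lie on both sides and those of *Gadd45a* below.

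Glial genes rose and fell in about equal numbers. Of 20 genes of Müller glia, the radial glia of the retina, 5 rose and 5 fell, and of 26 reactive gliosis genes 7 rose and 8 fell. *Aldh1l1*, a folate enzyme of astroglia, was at 15.9 and 14.9 FPKM after PBS and 48.5 and 46.6 FPKM after NMDA (1.62 ± 0.09, adjusted p = 2.64e-05), and *Ednrb*, an endothelin receptor, at 9.84 and 10.2 FPKM after PBS and 33.1 and 31 FPKM after NMDA (1.67 ± 0.12, adjusted p = 0.000107). *Cd44*, a hyaluronan receptor of reactive glia, was at 15.6 and 17.1 FPKM after PBS and 43.5 and 42.9 FPKM after NMDA (1.4 ± 0.1, adjusted p = 0.000106). The galectins *Lgals1* and *Lgals3* were at 51.4 and 45.7 FPKM after PBS and 147 and 149 FPKM after NMDA and at 16.7 and 15.7 FPKM after PBS and 57.9 and 53.2 FPKM after NMDA, rising by 1.61 and 1.77 (adjusted p = 1.32e-05 and 5.44e-05).

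Among the falls were *Glul*, the glutamine synthetase of Müller glia, at 279 and 273 FPKM after PBS and 171 and 175 FPKM after NMDA (-0.68 ± 0.04, adjusted p = 2.64e-05), and *Clu*, the chaperone clusterin, at 529.62 and 523 FPKM after PBS and 303 and 285 FPKM after NMDA (-0.84 ± 0.05, adjusted p = 2.44e-05). *Gfap*, the intermediate filament used as a sign of gliosis, was at 83.2 and 80.3 FPKM after PBS and 69.5 and 68.2 FPKM after NMDA and did not pass the test (-0.25 ± 0.08, adjusted p = 0.0766). The rise of *Lgals1* was smaller than in WT, with a log2 difference of -1.78 (95% CI -2.04 to -1.52, adjusted p = 3.13e-06), and that of *Lgals3* smaller than in sh*Pax6* retinas, with -3.07 (95% CI -3.44 to -2.7, adjusted p = 8.22e-06). *Cd44* responded more than in WT, with 1.42 (95% CI 1.09 to 1.75, adjusted p = 4.76e-05), and less than in sh*Pax6* retinas, with -0.95 (95% CI -1.28 to -0.61, adjusted p = 0.00304).

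Other single genes with large rises were *Gpd1*, the cytosolic glycerol-3-phosphate dehydrogenase, at 2.2 and 3.14 FPKM after PBS and 13.4 and 12.8 FPKM after NMDA (2.27 ± 0.17, adjusted p = 0.000107), and *Aldh1a3*, which makes retinoic acid, at 2.37 and 2.55 FPKM after PBS and 10.3 and 10.3 FPKM after NMDA (2.03 ± 0.24, adjusted p = 0.00129). *Nav2*, a protein of neurite growth, was at 3.77 and 3.51 FPKM after PBS and 12.8 and 12.2 FPKM after NMDA (1.75 ± 0.22, adjusted p = 0.00145). *Clcf1*, a cytokine of the IL-6 family, was at 5.04 and 4.25 FPKM after PBS and 15.6 and 13.1 FPKM after NMDA (1.61 ± 0.15, adjusted p = 0.000318). *Met*, the receptor of hepatocyte growth factor, was at 2.12 and 1.99 FPKM after PBS and 7.2 and 7.78 FPKM after NMDA (1.82 ± 0.33, adjusted p = 0.00927). Its call depended on every library, *Met* (lost without each of the 4 libraries, adjusted p up to 0.0901). Both *Nav2* and *Met* responded more than in WT, with log2 differences of 2.65 (95% CI 1.96 to 3.34, adjusted p = 9.06e-05) and 1.77 (95% CI 0.72 to 2.81, adjusted p = 0.0103), and the length correction gave 0.86 (adjusted p = 0.0536) and 0.36 (adjusted p = 0.602).

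Stress responses were present in part. Of 24 heat shock and chaperone genes 9 rose and 1 fell (3 to 6 rising with 1 library left out). *Bag3*, a cochaperone of selective autophagy, was at 4.97 and 5.66 FPKM after PBS and 11.2 and 10.4 FPKM after NMDA (1.01 ± 0.14, adjusted p = 0.00282), and the small heat shock protein *Cryab*, also a lens crystallin, at 109 and 109 FPKM after PBS and 177 and 175 FPKM after NMDA (0.69 ± 0.05, adjusted p = 6.8e-05). Of 19 lens genes 4 rose, and the summed FPKM of the lens list was 321 and 299 after PBS and 474 and 459 after NMDA, so the part of carried-over lens in lens genes such as *Cryab* was not tested. Metallothionein, iron and NRF2 genes were mixed, with 4 of 24 rising and 6 falling. *Hmox1*, heme oxygenase, was at 17 and 15.1 FPKM after PBS and 36.3 and 37.5 FPKM after NMDA (1.19 ± 0.12, adjusted p = 0.000598), and *Ftl1*, the ferritin light chain, at 572 and 523 FPKM after PBS and 808 and 831 FPKM after NMDA (0.58 ± 0.06, adjusted p = 0.000436). Among the falls were *Osgin1* (-0.9 ± 0.19, adjusted p = 0.02) and *Mt3* (-0.8 ± 0.16, adjusted p = 0.0134). The *Mt3* call was lost with the spread of the JNK3 KO libraries alone (adjusted p = 0.0538).

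Of 26 p53 target and DNA damage genes 6 rose and 1 fell (2 to 4 rising with 1 library left out). *Trp53inp1*, a p53 target that acts in autophagy, was at 5.09 and 5.39 FPKM after PBS and 11.2 and 10.9 FPKM after NMDA (1.06 ± 0.13, adjusted p = 0.00123), and *Aen*, an apoptosis-enhancing nuclease, at 14.7 and 16 FPKM after PBS and 24.9 and 24.4 FPKM after NMDA (0.68 ± 0.1, adjusted p = 0.00291). *Rprm*, which halts the cycle at G2, was at 9.05 and 7.95 FPKM after PBS and 2.45 and 2.79 FPKM after NMDA (-1.66 ± 0.24, adjusted p = 0.00325). Of 32 genes of the integrated stress response 4 rose and 1 fell, and 8 rose and 0 fell under quantile normalization.

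Promoter sequences were read for the genes with a change above 1 on the log2 scale, since AP-1 is the complex that JNK signaling acts on and NF-kB drives many of the inflammatory genes. RefSeq windows of 250 bases before to 50 after the start (GRCm38.p6) were found for 88 of 128 rising genes (117 windows) and for 205 of 307 falling genes with a symbol (261 windows). The AP-1 motif TGACTCA, on either strand, was in 12 rising windows (10.3%), 14 falling windows (5.36%), 3.72% of the windows of all genes tested and 5.2% of all promoters. The NF-kB motif GGANTTTCC was in 10 falling windows (3.83%), 2 rising windows (1.71%), 1.38% of the windows of genes tested and 1.25% of all promoters. Of the other motifs, CRE (TGACGTCA), STAT (TTCCNGGAA) and ATF4 (TGATGNAA) were in 1.71%, 0% and 1.71% of the rising windows and in 0.766%, 1.15% and 3.45% of the falling windows. In the windows of genes tested they were in 2.92%, 1.24% and 2.21%, and in all promoters in 1.79%, 1.15% and 3.97%. A match is a description of the letters and not a site in use, and windows of a gene can overlap.

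The promoters below show the AP-1 motif in 2 genes that rose and in 1 that fell, and the NF-kB motif in 1 that fell, in capitals and 5′ to 3′ on the strand of the gene. *Met* (chr6:17463707-17464006, plus strand) has it 54 bases before the start and *Bag3* (chr7:128523333-128523632, plus strand) 20 bases before. *Il1rn* (chr2:24336610-24336909, plus strand), the interleukin-1 receptor antagonist, has it in the most upstream of its windows, 141 bases before that start, and was at 7.57 and 8.08 FPKM after PBS and 1.33 and 1.07 FPKM after NMDA (-2.61 ± 0.51, adjusted p = 0.0139). *Tnfaip2* (chr12:111442411-111442710, plus strand), a TNF-induced gene, has the NF-kB motif 87 bases before the start and was at 3.82 and 4.18 FPKM after PBS and 0.99 and 2.15 FPKM after NMDA (-1.39 ± 0.32, adjusted p = 0.0254). Both of these calls were lost with a library left out, *Il1rn* (lost without each of the 4 libraries, adjusted p up to 0.121) and *Tnfaip2* (lost without 3 of the 4 libraries, adjusted p up to 0.132).
*Met*: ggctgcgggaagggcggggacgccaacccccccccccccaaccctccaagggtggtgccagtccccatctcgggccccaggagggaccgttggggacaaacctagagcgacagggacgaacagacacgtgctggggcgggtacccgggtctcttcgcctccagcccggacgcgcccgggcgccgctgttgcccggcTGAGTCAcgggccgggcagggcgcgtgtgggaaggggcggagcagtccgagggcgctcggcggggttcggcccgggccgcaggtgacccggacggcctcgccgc
*Bag3*: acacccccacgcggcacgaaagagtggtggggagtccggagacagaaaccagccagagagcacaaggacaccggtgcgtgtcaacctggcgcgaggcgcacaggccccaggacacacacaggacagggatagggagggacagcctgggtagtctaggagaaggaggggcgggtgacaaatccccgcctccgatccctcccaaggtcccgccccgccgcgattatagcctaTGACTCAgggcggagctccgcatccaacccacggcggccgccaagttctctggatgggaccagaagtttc
*Il1rn*: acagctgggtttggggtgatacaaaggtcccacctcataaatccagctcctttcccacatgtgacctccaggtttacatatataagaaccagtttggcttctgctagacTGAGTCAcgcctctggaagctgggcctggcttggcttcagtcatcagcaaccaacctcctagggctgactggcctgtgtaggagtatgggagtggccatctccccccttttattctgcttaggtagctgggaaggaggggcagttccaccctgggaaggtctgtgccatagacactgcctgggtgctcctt
*Tnfaip2*: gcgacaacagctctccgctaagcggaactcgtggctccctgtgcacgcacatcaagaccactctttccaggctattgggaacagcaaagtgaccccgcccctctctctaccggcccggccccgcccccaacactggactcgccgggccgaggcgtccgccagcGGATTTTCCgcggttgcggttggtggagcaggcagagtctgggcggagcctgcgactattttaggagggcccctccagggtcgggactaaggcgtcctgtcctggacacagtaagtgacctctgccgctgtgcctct
*Met* and *Bag3* rose and *Il1rn* fell with the same motif in the window.

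Of 12 pro-apoptotic BCL2 genes 0 rose and 1 fell, none of 8 anti-apoptotic members passed, and of 21 caspase and apoptosome genes 1 rose and 1 fell, shares near the background of 4.33% rising and 6.1% falling. *Bax*, the pore-forming executioner of mitochondrial apoptosis, was at 44.6 and 45.3 FPKM after PBS and 47.4 and 41.8 FPKM after NMDA (-0.01 ± 0.13, adjusted p = 0.983), with the NMDA libraries on both sides of the PBS libraries. *Bcl2l1*, which encodes the protective BCL-XL, was at 38.4 and 38.4 FPKM after PBS and 46.2 and 43.9 FPKM after NMDA (0.23 ± 0.14, adjusted p = 0.366). Of 15 death receptor and ligand genes 3 rose and 2 fell, among the rises *Tnfrsf12a*, the TWEAK receptor, at 15.7 and 16.2 FPKM after PBS and 30.9 and 30.1 FPKM after NMDA (0.93 ± 0.07, adjusted p = 0.000115).

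A list of 10 genes of cell death and stress holds *Bax*, *Gadd45a*, *Ing4*, *Dedd2*, *Bad*, *Pdcd2*, *Bcl2l1*, *Gadd45b*, *Pdcd5* and *Myc*. All 10 were listed as genes that the study names for its RNA-seq. Those up to *Pdcd2* are targets that it selected with that RNA-seq in view. The list and its counts against WT are thus not independent evidence of the direction the study reports. In JNK3 KO 2 of the 10 rose and 0 fell, with a median log2 fold change of -0.08, beside 10 that rose in WT (median 1.4) and 6 in sh*Pax6* retinas (median 0.39). The shares of all genes tested that rose were 4.33% in JNK3 KO, 26% in WT and 19.1% in sh*Pax6* retinas. The 2 are *Myc* and *Gadd45b*, a stress-induced growth arrest gene at 48.6 and 47.4 FPKM after PBS and 55.7 and 57.2 FPKM after NMDA (0.23 ± 0.06, adjusted p = 0.0424), whose call depended on every library, *Gadd45b* (lost without each of the 4 libraries, adjusted p up to 0.201). *Gadd45a* was at 31.8 and 32.6 FPKM after PBS and 24.3 and 26.1 FPKM after NMDA (-0.35 ± 0.15, adjusted p = 0.174), with the NMDA libraries below the PBS libraries. The groups did not overlap in 61.5% of all genes tested. *Ing4*, *Dedd2*, *Bad*, *Pdcd2* and *Pdcd5* had log2 fold changes between -0.27 and -0.05, and none passed.

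In this list, which is not independent of the study's RNA-seq, the response was lower than in WT for 8 of the 10 genes and higher for 0 (background 23.5% and 27.9%). *Bax* rose in WT from 34 and 41.1 to 118 and 113 FPKM, and JNK3 KO differed by -1.64 (95% CI -2.06 to -1.21, adjusted p = 9.3e-05). *Gadd45a* differed by -1.54 (95% CI -2 to -1.07, adjusted p = 0.00023), *Gadd45b* by -1.56 (95% CI -1.75 to -1.36, adjusted p = 1.38e-06) and *Pdcd5* by -2.13 (95% CI -2.42 to -1.84, adjusted p = 2.17e-06). Under the length correction 4 of the 8 differences no longer passed: *Bax* at -0.46 (adjusted p = 0.0718), *Gadd45a* at -0.54 (adjusted p = 0.0683), *Bad* at -0.2 (adjusted p = 0.581) and *Pdcd2* at -0.64 (adjusted p = 0.198). On the TPM scale *Dedd2* did not pass (-0.25, adjusted p = 0.432). Against sh*Pax6* the response of JNK3 KO was lower for 4 of the 10 (background 12.1%), of which the length correction ended *Gadd45a* (-0.63, adjusted p = 0.0765), *Ing4* (-0.25, adjusted p = 0.182) and *Pdcd5* (-0.14, adjusted p = 0.524), and 75th percentile scaling ended *Pdcd5* too (-0.44, adjusted p = 0.0504). *Bax*, at -0.44 (95% CI -0.87 to -0.01, adjusted p = 0.148), did not pass.

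The other JNK kinases did not pass the test in JNK3 KO. *Mapk8*, encoding JNK1, was at 24 and 25.8 FPKM after PBS and 29.3 and 30.8 FPKM after NMDA (0.27 ± 0.12, adjusted p = 0.224), and *Mapk9*, encoding JNK2, at 37.1 and 38.8 FPKM after PBS and 35.3 and 34.7 FPKM after NMDA (-0.12 ± 0.11, adjusted p = 0.603). In WT both fell, by 1.83 and 1.5 on the log2 scale, and the responses differed by 2.1 (95% CI 1.7 to 2.49, adjusted p = 1.28e-05) and 1.39 (95% CI 1.03 to 1.75, adjusted p = 8.98e-05). *Pax6*, the transcription factor of RGCs and amacrine cells that the study follows, was at 187 and 191 FPKM after PBS and 129 and 138 FPKM after NMDA (-0.51 ± 0.07, adjusted p = 0.00247). Its fall was smaller than in WT, with a log2 difference of 1.18 (95% CI 0.96 to 1.4, adjusted p = 1.25e-05), and differed from that in sh*Pax6* retinas by 0.07 (95% CI -0.15 to 0.29, adjusted p = 0.684). Of 23 genes of JNK kinases and scaffolds 3 rose and 1 fell, and 1 rose under the length correction and 0 to 1 with 1 library left out.

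Across all genes tested, the response to NMDA of JNK3 KO was higher than that of WT for 4597 genes (27.9%) and lower for 3875 (23.5%). On the TPM scale, which removes the larger FPKM sums of the WT NMDA libraries, these counts were 6973 and 2105, and the median difference moved from 0.03 to 0.62. Against sh*Pax6*, 926 genes were higher (5.62%) and 1987 lower (12.1%), or 1373 and 1456 after scaling to the 75th percentile and 1666 and 1267 under quantile normalization. With any 1 JNK3 KO library left out, the counts against sh*Pax6* were 447 to 589 and 1217 to 1408. Of all genes tested, 26% rose and 33.8% fell in WT, and 19.1% rose and 11% fell in sh*Pax6*. Of the 713 genes that rose in JNK3 KO, 188 rose in WT (26.4%) and 418 fell (58.6%), whereas 313 rose in sh*Pax6* (43.9%) and 61 fell (8.56%). Of the 1005 that fell, 360 fell in WT (35.8%) and 405 rose (40.3%), and 434 fell in sh*Pax6* (43.2%) and 241 rose (24%).

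The log2 fold changes of JNK3 KO were weakly related to those of the other genotypes across genes, with Pearson r = -0.0644 and a Spearman rank correlation of -0.175 for WT and 0.0599 and 0.133 for sh*Pax6*. These are over 16471 genes that share 4 libraries per genotype and opposite trends with gene length, and they are given as descriptions.

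**Figure D5:**
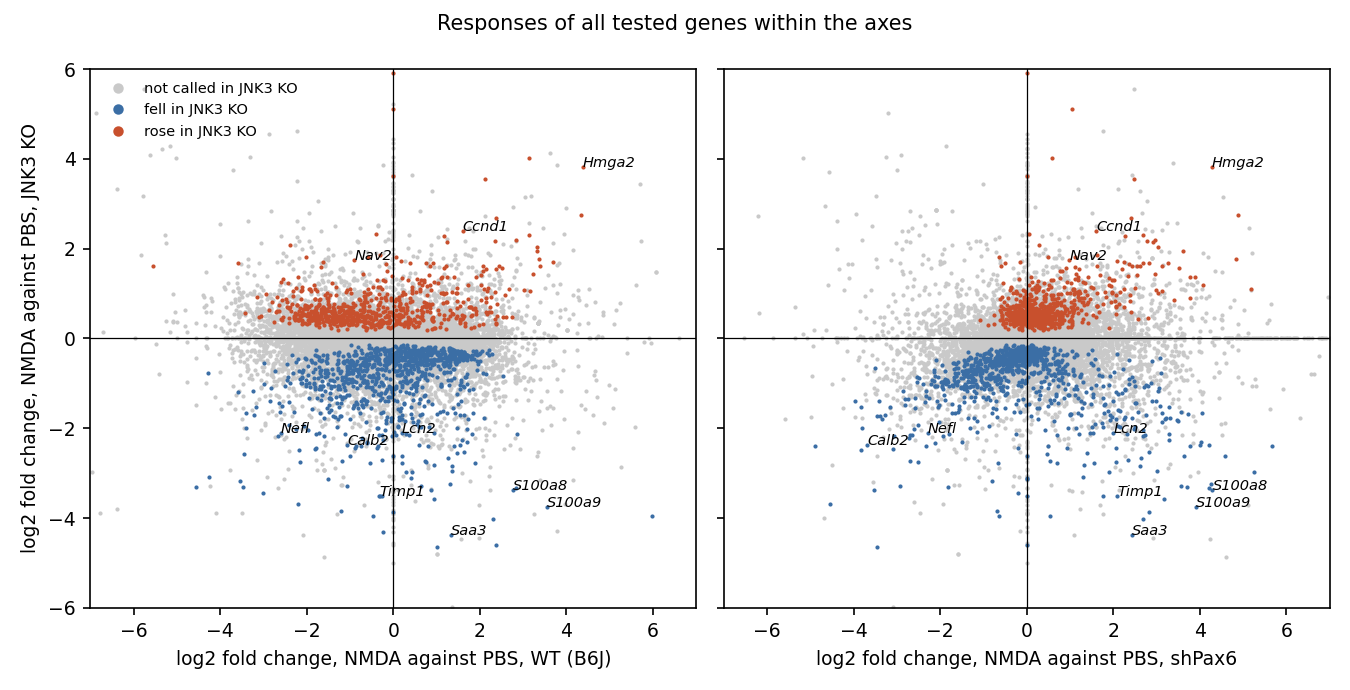
Log2 fold change after NMDA of each gene in JNK3 KO (y axis) against that in WT (x axis, left) and in sh*Pax6* retinas (x axis, right), colored by the call in JNK3 KO, with 59 genes outside the axes of a plot. *S100a9*, at -3.75 in JNK3 KO and 3.55 in WT, lies at the lower right, and *Hmga2*, at 3.82 and 4.38, at the upper right.

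Transcripts were called by an unadjusted p under 0.05, a log2 fold change above 1 in size and a mean above 1 FPKM in either JNK3 KO group. By these criteria 1149 of 49940 transcripts were higher (2.3%) and 1117 lower (2.24%) after NMDA in JNK3 KO. At an adjusted p under 0.05 the numbers were 144 and 182, and without NMDA replicate 2 the number higher by the first criteria was 697. Of 1937 genes with a called transcript, 128 had transcripts called in both directions, 3 of them at the adjusted p. One is *Lmna*, which encodes the nuclear lamins A and C, where a coding transcript of 2021 bases went from 4.61 and 3.59 to 9.93 and 9.73 FPKM (log2 fold change 1.25 ± 0.2, adjusted p = 0.0284) and one of 1536 bases from 1 and 1.48 FPKM to 0 in both NMDA libraries. For *Cpsf6*, a subunit of the cleavage factor that selects poly(A) sites, the transcript of 6526 bases went from 6.87 and 8.27 to 15.8 and 14.7 FPKM (1 ± 0.13, adjusted p = 0.0137), while one of 717 bases annotated for nonsense-mediated decay went from 1.49 and 2.73 FPKM to a listed 0. The third is *Tbc1d17*, a GTPase-activating protein, with a retained-intron transcript of 305 bases at 5.11 and 4.53 FPKM after PBS and at 0 after NMDA.

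Other transcripts were listed at 0 in all libraries of a group. A coding transcript of 2646 bases of *Psap*, the lysosomal prosaposin, was listed at 0 in both PBS libraries and at 77.1 and 89.8 FPKM after NMDA, while the whole gene, which fell by 0.21 on the log2 scale (adjusted p = 0.0181), was at 329 and 327 and at 284 and 283 FPKM. A coding transcript of 380 bases of *Ube2d3*, a ubiquitin-conjugating enzyme, was at 40.4 and 30.5 FPKM after PBS and listed at 0 in both NMDA libraries. An isoform value of 0 is an estimate that shares reads with other isoforms, so no fold is given for these.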

How the data were processed

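RNA-seq of mouse retina was analysed from 12 libraries, 2 in each of 6 groups, of which the 4 of JNK3 KO retinas are described. The authors deposited gene and transcript FPKM values. The submitters' processing notes name STAR 2.7.1a, RSEM 1.3.3 and the build GRCm38.p6. No counts were used and the depth is unknown, so precision was judged from the replicates. FPKM were transformed to log2(FPKM + 0.1), which understates the change of low genes, and a gene or transcript was tested if the mean of any 1 of the 6 groups exceeded 1 FPKM. All 12 libraries entered a single limma fit (limma 3.58.1 under R 4.3.3) with a mean for each group, moderated variances that follow intensity, and 6 residual degrees of freedom. A gene was called when its p, adjusted by Benjamini-Hochberg over all genes tested, was under 0.05, and transcripts at an unadjusted p under 0.05 and an absolute log2 fold change above 1, which follows the study's criteria in part. Differences between genotypes are differences of log2 fold changes from the same fit, with 95% confidence intervals. Errors are standard errors with 2 libraries a group. Nothing says that replicate libraries came from separate cohorts, so p-values measure only the spread between these pools, which may be technical.

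Gene names were matched to GENCODE M21 for 55227 of 55487 genes, and coordinates and spliced lengths come from it. Where genes share a symbol, the one of highest mean was used in a list. Named genes are *Mapk10*, *Mapk8*, *Mapk9*, *Pax6*, the list of 10 cell death and stress genes, the 12 largest rises and falls above 1 FPKM in both JNK3 KO groups, the 8 highest risen from under 1 FPKM, up to 4 called members of each list, and the largest differences between responses among genes above 1 FPKM in both JNK3 KO groups. The choices of largest changes and differences left out genes that do not code for proteins and provisional symbols (Gm with a number, or ending in Rik). *Ccl6*, *Ly6g*, *Ngp*, *Xist*, *Thy1*, *Pou4f1*, *Slc17a6*, *Rbpms*, *Jun*, *Atf3*, *Gfap*, *mt-Atp8*, *mt-Nd2*, the named transcripts and the printed promoters were chosen after their values were seen. The members and lists were chosen with earlier results of these data known. Promoters are from RefSeq (GRCm38.p6), and *Fosl1*, *Myc* and *Ccnd1* had no entry. The fitting script was tested on simulated data. Alternatives covered the pseudocount, the filter, scaling, gene length, the estimate of the spread, a replicate block and leaving out each library. Those that left out both NMDA libraries of another genotype were chosen after seeing the data.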

Additional observations from a re-analysis of the deposited data

Results flagged for a closer look

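The differences listed here are tested differences between responses, each the log2 fold change after NMDA in JNK3 KO minus that in another genotype, chosen as the largest with an adjusted p under 0.05 (limma) among protein-coding genes with a mean above 1 FPKM in both JNK3 KO groups. Genes under that level, such as *Il1b*, can differ by more. Provisional symbols (Gm with a number, or ending in Rik), symbols holding -ps and genes of the mitochondrial genome were also left out. Groups of 2 libraries are too small for a test of outlying samples.

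Against WT, the response of JNK3 KO was most above for *Adnp* (5.62), *B3gnt2* (5.3), *Zfp804b* (5.08), *Kcna3* (5.07), *Zkscan16* (4.92) and *Gabrb2* (4.89). It was most below for *S100a9* (-7.3), *S100a8* (-6.14), *Saa3* (-5.7), the histone gene *H2ac18* (-5.06), *Ccl2* (-4.32) and *Wfdc17* (-4.18). In JNK3 KO itself none of the genes most above passed the test (log2 fold changes 0.15 to 0.93, adjusted p 0.362 to 0.905, limma). Their differences thus lie mostly in falls in WT. *H2ac18* (-2.37), *Ccl2* (0.53) and *Wfdc17* (-1.13) did not pass in JNK3 KO either. The difference for *Wfdc17* had an adjusted p of 0.0488 and was lost under 7 alternatives, with an adjusted p of 0.18 under the length correction.

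Against sh*Pax6*, the response of JNK3 KO was most above for *Gemin4* (5.1), *Slc16a8* (4.76), *Pon1* (4.21) and *Rpe65* (3.88), and most below for *Slpi* (-8.1), *AA467197* (-8.07), *S100a8* (-7.66) and *S100a9* (-7.65). None of the genes most above passed in JNK3 KO itself, with log2 fold changes from -0.17 to 0.48, and neither did *Slpi* (-1.78). *Slc16a8* and *Rpe65* are genes of the retinal pigment epithelium, the layer next to the photoreceptors. The difference for *Gemin4* was lost with no filter on low values (adjusted p = 0.0636) and without the intensity trend (0.0561).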

How the results depend on the processing

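With 2 libraries a group, the counts of genes depend on every library, and FPKM give no depth to limit them further. With 1 library left out, the JNK3 KO response had 174 to 269 genes rising and 354 to 457 falling. The lone library left in a group is then assumed to vary like those of the other groups. The differences from WT had 3930 to 4333 higher and 3345 to 3559 lower, those from sh*Pax6* 447 to 1331 higher and 1217 to 2193 lower, and transcripts 697 to 1363 higher and 877 to 1183 lower.

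No setting gave a call opposite to one of the 1718. Differences from WT were 6973 higher and 2105 lower on the TPM scale, and 2594 higher under the length correction. Those from sh*Pax6* were 1666 higher and 1267 lower under quantile normalization, and 1177 lower under the length correction. An adjusted p left 144 transcripts higher and 182 lower. The sign changed, with no call, for *mt-Nd4* in JNK3 KO under quantile normalization (-0.03) and for the *Nefl* difference from WT under the length correction (-0.12). The causes were not tested.

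Replicates share only a number, and deviations of same-numbered JNK3 KO libraries correlated at -0.0973. With a replicate block 610 genes rose and 914 fell in JNK3 KO, and 4 of the 166 genes examined lost their call.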

Other observations

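Genes of the extracellular matrix changed in both directions in JNK3 KO retinas. Of 28 tested, 5 fell and 3 rose, numbers that were the same with any 1 JNK3 KO library left out. *Tgfbi*, a secreted protein induced by TGF-beta, was at 29.3 and 29.8 FPKM after PBS and 7.21 and 7.74 FPKM after NMDA (-1.97 ± 0.12, adjusted p = 3.69e-05), and *Mmp9*, a gelatinase of neutrophils and glia, at 14.8 and 14.4 FPKM after PBS and 4.18 and 3.9 FPKM after NMDA (-1.83 ± 0.23, adjusted p = 0.00179). In WT retinas their log2 fold changes were 0.11 and 0.57.

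Further genes with large changes were not counted in any of the groups described. *Hsd17b2*, an enzyme that inactivates sex steroids, was at 3.3 and 2.25 FPKM after PBS and 11.6 and 13.8 FPKM after NMDA (2.17 ± 0.28, adjusted p = 0.00179). *Abca1*, the exporter of cellular cholesterol, was at 6.06 and 4.59 FPKM after PBS and 11.1 and 11.6 FPKM after NMDA (1.09 ± 0.16, adjusted p = 0.00387). *Trarg1*, a regulator of glucose transporter traffic, was at 10.8 and 11.2 FPKM after PBS and 1.92 and 1.87 FPKM after NMDA (-2.47 ± 0.27, adjusted p = 0.000847). The RGC list held this gene under its older symbol *Tusc5*, which was not matched, so the RGC counts leave it out. *Neurog2*, a proneural transcription factor of retinal progenitors, was at 1.1 and 0.75 FPKM after PBS and 4.72 and 4.02 FPKM after NMDA (2.14 ± 0.46, adjusted p = 0.0206), a call lost when any 1 library was left out (adjusted p up to 0.137).

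The retinal circadian clock list had 3 of 19 genes rising (1 under the length correction) and 1 falling, and none of the rises was kept in every one of the fits with 1 library left out. Among 24 genes of metallothioneins, iron handling and the NRF2 response 4 rose and 6 fell. The background for both lists was 4.33% rising and 6.1% falling.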
